A study of Homo sapiens with 6 samples.

Results

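The protein folding machinery of the endoplasmic reticulum (ER) was followed at the mRNA level in 6 libraries from the human bladder cancer lines T24 and UMUC3. The set was chosen by name and holds 33 genes of the 30717 in the deposited table: lectin chaperones, HSP70 and HSP90 chaperones with their J protein partners, disulfide isomerases, the stress sensors with XBP1, ER-associated degradation (ERAD) factors, secreted stress proteins, and translocon and COPII coat genes. All 33 passed the filter on low counts, as did 20721 genes in all. Each line gave 1 control library and 2 circPTK2 knockdown libraries, circPTK2 being a circular RNA made from exons of PTK2. The knockdown libraries carry the numbers 1 and 2 of the reagents in the sample titles. The titles name siRNAs whereas the design text of the series names sh constructs, so the reagent is not settled, and no genotype, dose or time beyond line and knockdown is given. Nothing says whether the libraries of a group are separate cultures, so a p-value reflects the spread between these samples alone, which may be technical. By the titles the 2 knockdown libraries of a line differ in reagent. That spread therefore includes any difference between reagents 1 and 2, and no reagent was repeated within a line. Linear PTK2 transcripts share exons with the circle, and the knockdown itself was not checked.

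Proteins that enter the ER are threaded through the SEC61 translocon, bound by HSPA5 and other chaperones, glycosylated, oxidised by disulfide isomerases and, when they stay misfolded, returned to the cytosol for degradation. The sensors ERN1 (IRE1), ATF6 and EIF2AK3 (PERK) respond to unfolded protein in the lumen. ERN1 splices XBP1 mRNA, ATF6 is released as a transcription factor, EIF2AK3 slows translation, and the XBP1 and ATF6 factors raise transcription of chaperone and ERAD genes through short promoter elements.

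Those elements were looked for in the members' promoters. The set was named for the pathway that these factors act on, so finding the elements is not independent of the choice by name. RefSeq promoter windows on GRCh38.p14, from 250 bases before to 50 bases after each annotated start, were matched for 31 members, and PDIA3 and SEC24D were not matched. The ER stress element (ERSE) was searched as CCAAT and CCACG with 9 bases of any kind between them, ERSE-II as ATTGG and CCACG with 1 base between them, and the unfolded protein response element (UPRE) as TGACGTGG, on both strands. ERSE was in the windows of 7 of the 31 members and of 25 of 27305 gene symbols in all (0.0916%). ERSE-II was in those of 3 members and 19 symbols (0.0696%). UPRE was in those of 2 members and 253 symbols (0.927%), and 1 of its member sites, in HYOU1, overlaps an ERSE-II site. The sites are printed because CALR, CRELD2, HSPA5 and HYOU1, which are among the members with the smallest p after knockdown, carry them. P4HB, PDIA4 and ERN1 are also among those members and have none of the elements in their windows, and PDIA3 was not matched. They are written 5′ to 3′ on the strand of the gene, with the fixed letters of the element in capitals. CGTGG followed by ATTGG or CCAAT is the element read on the opposite strand.
HSPA5 (ERSE, chr9:125241376-125241424, minus strand): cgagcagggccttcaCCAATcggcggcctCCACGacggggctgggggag
CALR (ERSE, chr19:12938369-12938417, plus strand): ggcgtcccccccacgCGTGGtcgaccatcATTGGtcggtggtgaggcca
CRELD2 (ERSE, chr22:49918539-49918587, plus strand): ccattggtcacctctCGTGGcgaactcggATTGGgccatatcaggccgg
HYOU1 (ERSE-II, chr11:119057365-119057405, minus strand): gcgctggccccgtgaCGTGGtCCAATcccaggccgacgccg
HYOU1 (ERSE-II, chr11:119057259-119057299, minus strand): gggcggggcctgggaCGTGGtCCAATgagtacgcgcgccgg
SDF2L1 (ERSE-II, chr22:21642099-21642139, plus strand): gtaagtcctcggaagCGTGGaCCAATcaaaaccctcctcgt
HSP90B1 (ERSE, chr12:103930216-103930234, plus strand): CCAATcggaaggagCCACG
HSP90B1 (ERSE, chr12:103930321-103930339, plus strand): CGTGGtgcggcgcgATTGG
PDIA6 (ERSE, chr2:10812853-10812871, minus strand): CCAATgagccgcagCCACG
CANX (ERSE, chr5:179698778-179698796, plus strand): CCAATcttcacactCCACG
XBP1 (ERSE, chr22:28800603-28800621, minus strand): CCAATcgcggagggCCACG
HERPUD1 (ERSE-II, chr16:56932025-56932035, plus strand): ATTGGgCCACG
DNAJC10 (UPRE, chr2:182716132-182716139, plus strand): CCACGTCA
The first 6 lines carry the bases around the element, and for the other sites only the element is shown because annotated exons overlap the window. A match of letters is a description of these windows and not a measured binding site.

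Libraries held 65111683 to 72362436 counts, of which 55071837 to 60780176 fell in named genes. Gene levels are in CPM, that is, relative to the named-gene total of the library after TMM scaling, and a gene's 3 values in a line are in the order control, knockdown 1, knockdown 2. In bulk RNA, fewer cells with a transcript and less of it per cell cannot be told apart. Of 13 measured epithelial and urothelial markers, 6 were under 1 CPM in every library (KRT5, KRT20, CDH1, UPK1A, UPK1B, UPK2). The summed level of the list was 3128 to 3349 CPM in T24 and 174 to 193 CPM in UMUC3, and was mostly KRT7, KRT8, KRT18 and KRT19 in T24. Among 4 immune markers PTPRC and LYZ were under 1 CPM everywhere. The immune sum was 7.53 to 9.34 CPM in T24, 29.1 CPM in the UMUC3 control and 51.4 to 54.6 CPM in its knockdown libraries, mostly from CD68. The 5 measured stromal and endothelial markers summed to 71.8 to 80.5 CPM in T24 and 12.2 to 13.4 CPM in UMUC3. The T24 sum was mostly CDH5, which was at 0 CPM in every UMUC3 library. The UMUC3 sum was mostly COL1A1 and PDGFRB, and both went the other way. Each was higher in the UMUC3 control and knockdown libraries than in the T24 library of the same kind and number. The mitochondrial share of named counts was 2.68% for the T24 control, 3.36 and 3.50% with knockdown, and 4.26 to 4.62% in UMUC3. The part of these differences in the results below was not tested.

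Knockdown libraries held a larger share of counts in the 33 genes than the control of their line. The share of named counts went from 0.922% to 1.01 and 1.05% in T24 and from 0.717% to 0.830 and 0.901% in UMUC3. Wilson 95% intervals of these shares were at most 0.00512 percentage points wide, which covers counting error only. The higher UMUC3 share in knockdown 2 than in knockdown 1 owes much to ERO1A and SEC61A1, on both sides of their control. ERO1A had 5411 (control), 278 and 19298 counts there, and SEC61A1 had 20949 (control), 18329 and 43656. The share weighs genes by their counts, and much of its rise over the UMUC3 control lay in CALR and P4HB. CALR had 24658 (control), 62259 and 60544 counts in UMUC3, and P4HB had 17701 (control), 34126 and 32657. In T24, 22 of 33 members had both knockdown libraries above the control and 6 had both below, while 34.7% of all tested genes lay above and 37.3% below. In UMUC3 the counts were 19 above and 8 below, with 35.6% and 37.1% of all tested genes. All 4 knockdown libraries exceeded their control in 14 members and lay below it in 3 (SEL1L, EDEM2, SEC24D), against 13.3% and 15.1% of all tested genes. The median log2 fold change over the members was 0.21 in T24 and 0.22 in UMUC3, where the median over all tested genes was 0 in each. A positive log2 change was found for 25 members in T24, 23 in UMUC3 and 25 in both lines together, and for 49.2%, 49.4% and 50.5% of all tested genes.

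**Figure D1:**
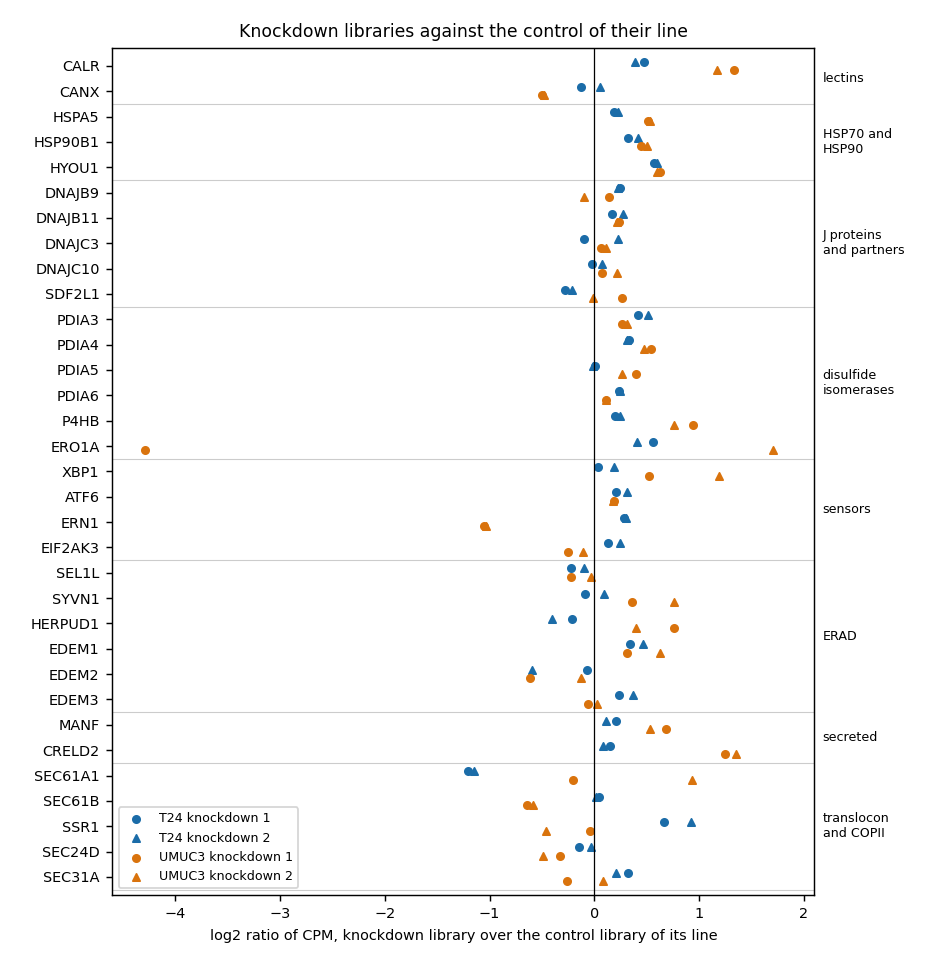
Log2 ratio of CPM in each knockdown library over the control library of its line (x axis) for the 33 genes (y axis, grouped by role), with T24 in blue, UMUC3 in orange, circles for knockdown 1 and triangles for knockdown 2. HSPA5, HSP90B1, HYOU1, PDIA3, PDIA4, PDIA6 and P4HB lie right of 0 in all 4 libraries, and ERO1A in UMUC3 lies on both sides.

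Few of these shifts passed the test over all genes. By edgeR's quasi-likelihood test with Benjamini-Hochberg adjustment, CALR in UMUC3 was the only member called in a knockdown comparison, and 0 members were called with the test's default dispersions. In both lines together 0 members were called (0.0145% of all tested genes were), in T24 0 (0.135%) and in UMUC3 1 (0.647%). At an unadjusted p under 0.05, 8 members were higher and 0 were lower in both lines together (5.95% and 5.63% of all tested genes), 8 and 0 in T24 (6.6% and 5.94%), and 10 and 3 in UMUC3 (9.22% and 7.62%). DESeq2 called 5 members in both lines together, HYOU1, HSP90B1, PDIA4, PDIA3 and CALR, all higher (4.73% of all tested genes were called). It called HYOU1 alone in T24 (4.73%), and in UMUC3 7 members higher (CALR, CRELD2, HSPA5, HYOU1, MANF, P4HB, PDIA4) and 2 lower (ERN1, SEC61B; 8.28%). Of the 33, 17 are composition-stable, meaning that they have 2 or more transcripts and that under 0.2 of their counts changed transcript between libraries of a line. In a fit over the 4593 such genes, edgeR called HYOU1 in both lines together (1.02% called) and in T24 (3.98%), and in UMUC3 4 members higher (CALR, HSP90B1, HYOU1, PDIA4) and 2 lower (ERN1, SEC61B; 12.5%).

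Calreticulin had the smallest p of the members in UMUC3. CALR (ENSG00000179218, chr19:12938578-12944489, plus strand, GRCh38) encodes the soluble lectin chaperone that holds newly glycosylated proteins in the lumen and stores calcium. It was measured at 880.4 CPM without knockdown and at 1224 and 1156 CPM with it in T24. In UMUC3 it was at 442 CPM without knockdown and at 1110.0 and 994 CPM with it. Each knockdown library lay above its control, and after knockdown the UMUC3 level came within the range of the T24 libraries. CALR rose in UMUC3 by 1.25 ± 0.10 on the log2 scale (SE, 2 knockdown libraries against 1 control; edgeR adjusted p = 0.0449), a 2.38-fold increase of the mean. This call stood just inside the threshold. With edgeR's older quasi-likelihood dispersions, the default of the version used, the edgeR adjusted p was 0.0608, and the choice of the newer ones was made after both had been computed. With the reagent number as a replicate block it was 0.204 by the titles' numbers and 0.259 by those of the columns. Leaving out UMUC3 knockdown 1 or 2 gave edgeR adjusted p values of 0.222 and 0.209, and leaving out T24 knockdown 1 or 2, which adds only to the spread, gave 0.181 and 0.177. The log2 values over these fits were 1.18 to 1.33. In T24 the change was 0.43 ± 0.10 (edgeR adjusted p = 0.228) and in both lines together 0.82 ± 0.20 (adjusted p = 0.257). CANX, the membrane-bound partner with the same sugar specificity, was at 974 (control), 890.4 and 1011 CPM in T24, on both sides of the control. The UMUC3 libraries had 1764 (control), 1248 and 1268 CPM, both lower with knockdown, with a log2 change of -0.49 ± 0.09 (edgeR adjusted p = 0.126).

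The HSP70 and HSP90 chaperones were higher in every knockdown library than in the control of its line, and none of the 3 passed the threshold. HYOU1 (ENSG00000149428, chr11:119044189-119057202, minus strand), a nucleotide exchange factor for HSPA5, had the smallest p of all members in both lines together and in T24. It was at 278 CPM without knockdown and at 413 and 420.3 CPM with it in T24. In UMUC3 it was at 175 CPM without knockdown and at 270.5 and 265 CPM with it. In each line the paired knockdown libraries lay closer to one another than to the control. Its log2 change was 0.60 ± 0.09 in both lines together (edgeR adjusted p = 0.126), 0.58 ± 0.08 in T24 (0.119) and 0.61 ± 0.08 in UMUC3 (0.0770). Among composition-stable genes the adjusted p was 0.0375, 0.0357 and 0.0176, and by DESeq2 it was 1.72e-10, 0.00558 and 0.00336. HSPA5 (ENSG00000044574, chr9:125234853-125241330, minus strand), the HSP70 of the ER lumen known as BiP, was at 1008 (control), 1151 and 1176 CPM in T24. The UMUC3 levels were 556 (control), 794 and 806 CPM, with a log2 change of 0.52 ± 0.06 (edgeR adjusted p = 0.0671; DESeq2 0.0139). In both lines together HSPA5 had a log2 change of 0.36 ± 0.10 (edgeR adjusted p = 0.296). Its T24 log2 change was 0.21 ± 0.06 (edgeR adjusted p = 0.323), and leaving out 1 library put the value for both lines between 0.21 (without the UMUC3 control) and 0.53 (without the T24 control). It has 1 transcript in the table, so reads could not move between its transcripts. HSP90B1, the luminal HSP90 known as GRP94, was at 732 (control), 916 and 980.2 CPM in T24 and at 785 (control), 1071 and 1111 CPM in UMUC3. Its log2 change was 0.42 ± 0.08 in both lines together (edgeR adjusted p = 0.179; DESeq2 0.00182) and in T24 0.37 ± 0.08 (edgeR adjusted p = 0.199).

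J proteins and their partners, which steer HSPA5 to its substrates, differed less. DNAJB11, the J protein bound to SDF2L1, was at 98.9 (control), 111 and 119.6 CPM in T24 and at 145 (control), 170.2 and 168 CPM in UMUC3, higher in all 4 knockdown libraries, with a log2 change of 0.22 ± 0.11 in both lines together (edgeR adjusted p = 0.486). SDF2L1 was at 62.7 (control), 51.7 and 54.0 CPM in T24, both lower, and at 40.7 (control), 48.9 and 40.3 CPM in UMUC3, on both sides. DNAJB9, a J protein that holds HSPA5 on ERN1, was at 12.7 (control), 15.03 and 14.9 CPM in T24 and at 17.4 (control), 19.1 and 16.3 CPM in UMUC3. For DNAJC3, which binds misfolded chains, the levels were 53.4 (control), 49.8 and 62.4 CPM in T24 and 49.7 (control), 52.1 and 53.6 CPM in UMUC3. DNAJC10, a reductase that breaks wrong disulfides, was at 126 (control), 125 and 133 CPM in T24 and at 129 (control), 136 and 150.4 CPM in UMUC3. The edgeR adjusted p values of these 5 genes in both lines together were 0.486 to 0.917.

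Among the disulfide isomerases, 4 of 6 genes of the group were above their control in all 4 knockdown libraries, and no member passed the threshold. P4HB (ENSG00000185624, chr17:81843159-81860694, minus strand), the abundant protein disulfide isomerase, was at 1188 CPM without knockdown and at 1362 and 1404 CPM with it in T24. UMUC3 levels of P4HB were 317 (control), 608 and 536 CPM, a log2 change of 0.85 ± 0.10 (edgeR adjusted p = 0.0677; DESeq2 0.000706). PDIA3, the isomerase that works with CALR and CANX, was at 855 (control), 1140.5 and 1224 CPM in T24 and at 286 (control), 343 and 354 CPM in UMUC3. Its log2 change was 0.47 ± 0.08 in T24 (edgeR adjusted p = 0.157) and 0.38 ± 0.09 in both lines together (0.249). The knockdown libraries of both lines were above their controls, in T24 by more. PDIA4, a further isomerase, was at 327 (control), 411 and 407 CPM in T24 and at 286 (control), 415 and 396 CPM in UMUC3. Its log2 change was 0.41 ± 0.10 in both lines together (edgeR adjusted p = 0.237; DESeq2 0.00679) and 0.32 ± 0.08 in T24 (edgeR adjusted p = 0.260). The isomerase PDIA6 was at 494 (control), 582 and 585 CPM in T24 (log2 0.24 ± 0.07, edgeR adjusted p = 0.309) and at 476 (control), 515 and 514 CPM in UMUC3. PDIA5 was at 53.3 (control), 53.5 and 52.9 CPM in T24, which overlap, and at 73.8 (control), 97.6 and 88.6 CPM in UMUC3, both higher.

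ERO1A, the oxidase that recharges P4HB, could not be read as a gene level in UMUC3. It was at 3.62 (control), 5.35 and 4.79 CPM in T24 and at 96.9 (control), 4.96 and 317 CPM in UMUC3, so the UMUC3 knockdown libraries lay far below and far above the control. Transcript ERO1A-201 alone held 5191 counts in the UMUC3 control, 0 in knockdown 1 and 18952 in knockdown 2, and 0, 1 and 1 in the T24 libraries. The T24 levels, like that of UMUC3 knockdown 1, thus rest on the gene's other transcripts and carry the same limit. The log2 change in UMUC3 was 0.73 ± 2.16 (edgeR adjusted p = 0.924).

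Of the sensors, ERN1 lay above its control in T24 and below it in UMUC3. ERN1 (ENSG00000178607, chr17:64039142-64130819, minus strand), the kinase and endonuclease that splices XBP1 mRNA, was at 16.5 (control), 20.1 and 20.3 CPM in T24. In UMUC3 it was at 33.3 (control), 16.1 and 16.3 CPM, so the UMUC3 knockdown libraries stood near the level of the T24 control. The UMUC3 log2 change was -1.04 ± 0.16 (edgeR adjusted p = 0.0985; 0.0207 among composition-stable genes and 4.24e-05 by DESeq2) and the T24 change 0.29 ± 0.17 (0.560). The other sensors showed smaller differences. ATF6 was at 75.3 (control), 86.9 and 93.2 CPM in T24 and at 65.3 (control), 74.5 and 74.0 CPM in UMUC3, higher in all 4 knockdown libraries (log2 0.22 ± 0.12 in both lines together, edgeR adjusted p = 0.537). EIF2AK3 was at 25.1 (control), 27.4 and 29.8 CPM in T24, both higher, and at 34.9 (control), 29.4 and 32.4 CPM in UMUC3, both lower. XBP1, the transcription factor made from the spliced mRNA, was at 126 (control), 129 and 144 CPM in T24 and at 24.9 (control), 35.6 and 56.6 CPM in UMUC3. All 4 knockdown libraries were above their control, and in UMUC3 the paired libraries differed more from one another than the lower one did from the control. Its log2 change in UMUC3 was 0.89 ± 0.33 (edgeR adjusted p = 0.297).

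ERAD genes had no common direction. SEL1L, the adaptor of the ubiquitin ligase SYVN1, was lower in all 4 knockdown libraries, at 194 (control), 167 and 181 CPM in T24 and at 128 (control), 110.4 and 126 CPM in UMUC3 (log2 -0.14 ± 0.11 in both lines together, edgeR adjusted p = 0.682). SYVN1 itself was at 73.6 (control), 69.3 and 78.5 CPM in T24 and at 25.0 (control), 32.1 and 42.4 CPM in UMUC3. HERPUD1, which organises the ligase complex, was at 72.8 (control), 62.8 and 55.0 CPM in T24, both lower, and at 33.6 (control), 57.1 and 44.3 CPM in UMUC3, both higher. The EDEM proteins trim or recognise mannose on misfolded glycoproteins. EDEM1 was higher in all 4 knockdown libraries, at 169.8 (control), 215 and 234 CPM in T24 and at 113 (control), 139.8 and 174 CPM in UMUC3 (log2 0.44 ± 0.13 in both lines together, edgeR adjusted p = 0.318). EDEM3 was at 58.9 (control), 69.2 and 75.9 CPM in T24 and at 40.4 (control), 38.8 and 41.3 CPM in UMUC3. EDEM2, with the lowest length-corrected level of the 33 in UMUC3, was at 11.7 (control), 11.1 and 7.74 CPM in T24 and at 4.89 (control), 3.19 and 4.47 CPM in UMUC3.

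The small secreted stress proteins CRELD2 and MANF were higher in all 4 knockdown libraries, in UMUC3 by more. CRELD2 (ENSG00000184164, chr22:49918167-49927540, plus strand) was at 52.7 CPM without knockdown and at 58.6 and 55.8 CPM with it in T24. In UMUC3 it was at 11.9 CPM without knockdown and at 28.4 and 30.5 CPM with it, a 2.47-fold higher mean. That log2 change was 1.31 ± 0.16 (edgeR adjusted p = 0.0702; DESeq2 7.77e-08), the highest of all members and short of the threshold. MANF, which binds HSPA5 and is released under stress, was at 82.8 (control), 95.3 and 89.5 CPM in T24 and at 37.8 (control), 60.9 and 54.7 CPM in UMUC3, with a UMUC3 log2 change of 0.61 ± 0.14 (edgeR adjusted p = 0.169).

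**Figure D2:**
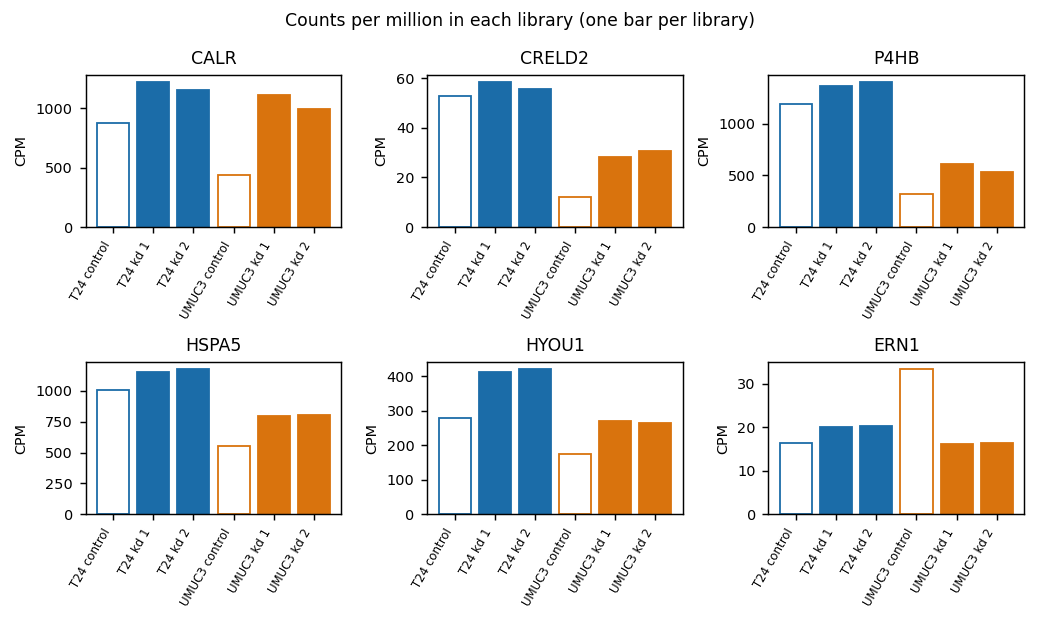
CPM (y axis, from 0) of 6 genes in each of the 6 libraries (x axis), 1 bar a library, open bars for controls, filled blue for T24 knockdown and filled orange for UMUC3 knockdown. The UMUC3 knockdown bars of CALR, CRELD2 and P4HB stand above the UMUC3 control, those of HYOU1 stand above the control in both lines, and ERN1 has a UMUC3 control of 33.3 CPM above all other libraries.

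Among the translocon and COPII genes 1 of 5 had a positive log2 change in UMUC3, SEC61A1, and none passed edgeR's threshold over all genes in either line. SEC61A1, the channel subunit, was at 542 (control), 235 and 244 CPM in T24, and at 375 (control), 327 and 717 CPM in UMUC3, on both sides of the control. In T24 its log2 change of -1.18 ± 0.49 did not pass (edgeR adjusted p = 0.454). SEC61B, a small subunit of the channel, was at 82.0 (control), 84.4 and 82.8 CPM in T24 and at 95.2 (control), 60.9 and 63.4 CPM in UMUC3, both UMUC3 knockdown libraries lower (log2 -0.62 ± 0.11, edgeR adjusted p = 0.119; 0.0296 among composition-stable genes and 0.00584 by DESeq2). SSR1, of the translocon-associated complex, was at 98.4 (control), 156 and 186 CPM in T24 and at 255 (control), 247 and 185 CPM in UMUC3, with a T24 log2 change of 0.80 ± 0.23 (edgeR adjusted p = 0.318). The cargo adaptor SEC24D was at 81.3 (control), 73.6 and 79.8 CPM in T24 and at 36.8 (control), 29.3 and 26.2 CPM in UMUC3, lower in all 4 knockdown libraries. The outer coat protein SEC31A was at 189 (control), 236 and 218 CPM in T24 and at 114 (control), 95.2 and 120.5 CPM in UMUC3.

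Members with an ERSE or ERSE-II site, shown above as sequences, were set beside the other members as a description with no test. The 10 with a site had a median log2 change of 0.56 in UMUC3, ranging from -0.49 (CANX) to 1.31 (CRELD2), and 9 of 10 were positive. The 21 without a site had a median of 0.15 there, with 13 positive. In T24 the medians were 0.16 with a site (7 of 10 positive) and 0.22 without (17 of 21 positive). CALR, CRELD2, HSPA5 and HYOU1 carry a site, while P4HB and PDIA4, with UMUC3 log2 values of 0.85 and 0.51, have none in these windows.

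Whether the knockdown response differed between the lines was tested directly, as the T24 change minus the UMUC3 change. No member passed (0.0579% of all tested genes did), and at an unadjusted p under 0.05 there were 4 positive and 5 negative members (6.27% and 7.19% of all tested genes). DESeq2 called ERN1 and CRELD2 (5.41% of all tested genes called), and ERN1 was called among composition-stable genes (3.29%). CALR had the smallest p, with a log2 difference of -0.82 ± 0.13 (edgeR adjusted p = 0.164). CRELD2 (-1.19 ± 0.22, edgeR adjusted p = 0.180), P4HB (-0.63 ± 0.14, 0.227) and HSPA5 (-0.32 ± 0.09, 0.285) also had the higher log2 change in UMUC3. ERN1 (1.33 ± 0.24, edgeR adjusted p = 0.180) and SEC61B (0.65 ± 0.16, 0.266) had the lower one there. For HYOU1 the log2 difference was -0.03 ± 0.11 and for HSP90B1 -0.10 ± 0.11, each within about its standard error of 0.

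The lines themselves differed in most of the set. With 3 libraries each and knockdown as a term, edgeR called 14 members higher and 4 lower in T24 than in UMUC3, where 21.3% and 18.9% of all tested genes were called. In the fit of composition-stable genes, 6 of 17 members were higher and 1 lower, against 1362 and 1272 of 4593 such genes. The members' share of calls was thus below that of all genes in that fit. All 3 T24 libraries lay above all 3 UMUC3 libraries in 15 members and below in 4, against 27.2% and 25.1% of all tested genes. PDIA3 had the smallest p. It ranged over 855 to 1224 CPM in T24 libraries and 286 to 354 CPM in UMUC3 libraries, a log2 difference of 1.70 ± 0.09 (edgeR adjusted p = 0.000108). P4HB (1.48 ± 0.15, edgeR adjusted p = 0.00116) and XBP1 (1.82 ± 0.26, 0.00341) were likewise higher in T24 with no overlap. HSPA5 (0.65 ± 0.09, edgeR adjusted p = 0.00361) and HYOU1 (0.65 ± 0.08, 0.00245) were higher by smaller amounts. The T24 control of HYOU1, at 278 CPM, lay close to the UMUC3 knockdown libraries at 265 and 270.5 CPM.

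Of the ERAD genes 5 of 6 were higher in T24, where 21.3% of all tested genes were, and HERPUD1 was not called. Further ERAD factors outside the members did not share this. Of 24 tested, 4 were called higher and 1 lower, and 12 log2 values were positive and 12 negative. SYVN1 differed by 1.18 ± 0.20 (edgeR adjusted p = 0.00607), EDEM3 by 0.75 ± 0.14 (0.00861) and SEL1L by 0.57 ± 0.11 (0.00956). EDEM1 and EDEM2 were also called higher. The libraries of EDEM1 overlapped, with the T24 control at 169.8 CPM and UMUC3 knockdown 2 at 174 CPM. The secreted proteins MANF (0.83 ± 0.15, edgeR adjusted p = 0.00808) and CRELD2 were higher in T24. So were the coat genes SEC24D (1.36 ± 0.14, edgeR adjusted p = 0.00126) and SEC31A (0.96 ± 0.14, 0.00423). Between the controls alone, SEC31A (adjusted p = 0.0703), EDEM3 (0.0874) and SEL1L (0.0581) did not pass edgeR's threshold. The 4 members lower in T24 were CANX, PDIA5, DNAJB11 (-0.55 ± 0.10, edgeR adjusted p = 0.00805) and ERO1A, the last of which rests on counts of transcript ERO1A-201 in 2 of 3 UMUC3 libraries. ATF6, ERN1 and EIF2AK3, the sensors, were not called between the lines, nor were CALR, HSP90B1, PDIA4, PDIA6, DNAJB9, DNAJC3, DNAJC10, SDF2L1, HERPUD1, SEC61A1, SEC61B and SSR1.

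**Figure D3:**
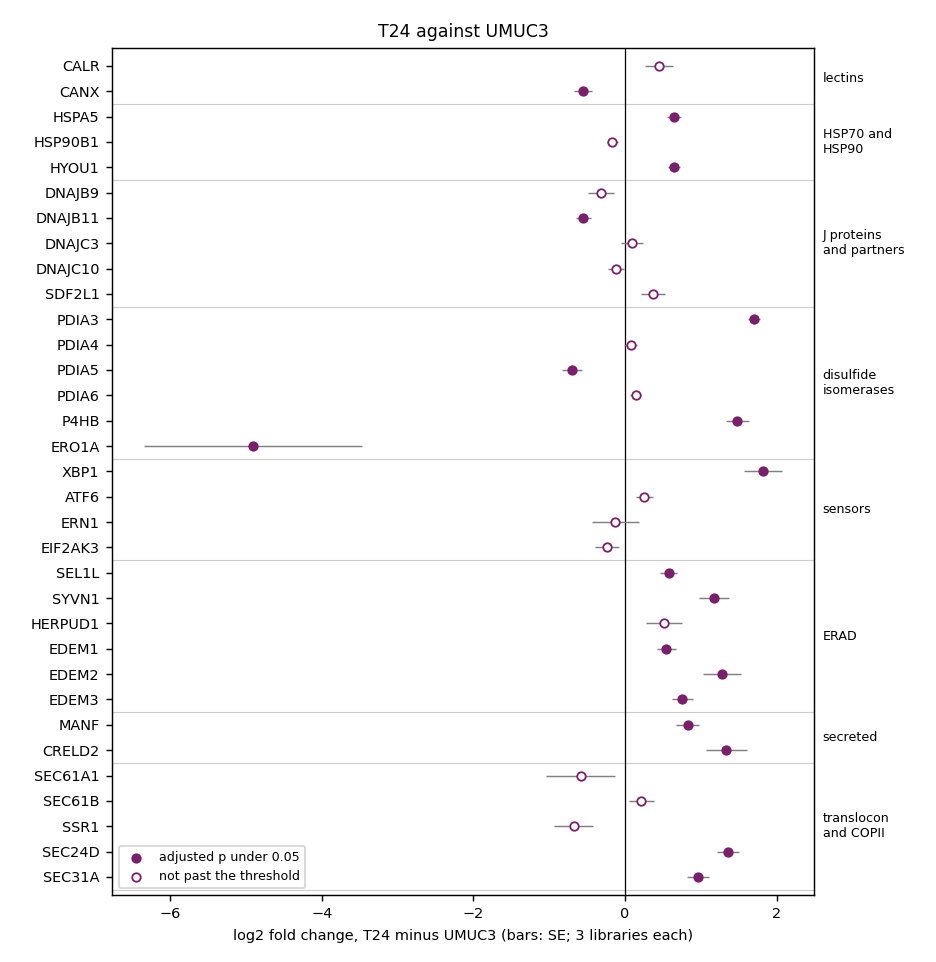
Log2 fold change of T24 over UMUC3 (x axis; bars are standard errors of the edgeR fit, 3 libraries a line) for the 33 genes (y axis, by role), filled where the adjusted p was under 0.05. Filled points lie right of 0 for 14 genes, among them 5 of the 6 ERAD members, and left of 0 for 4. Of all tested genes 21.3% were called higher and 18.9% lower.

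Levels of different genes were compared per length, as TPM, a length-corrected share of transcripts computed from the counts and annotated transcript lengths. P4HB had the highest TPM of the members in T24, at 1846 ± 170.2 TPM (mean ± SD, n = 3, knockdown libraries included). CALR followed at 1455 ± 305 TPM, and its library range from 1104 to 1649 TPM did not reach the lowest P4HB library at 1671 TPM. HSP90B1 (744 ± 76.6 TPM), PDIA3 (587 ± 101 TPM) and HSPA5 (577 ± 42.5 TPM) came next, with libraries overlapping from each to the next. In UMUC3 the order began with CALR (1103 ± 410.0 TPM), HSP90B1 (793 ± 138 TPM), CANX (664 ± 131 TPM) and P4HB (626 ± 183 TPM), whose libraries overlapped from each to the next. PDIA3 ranked 10 there at 172 ± 21.7 TPM. The sensors were far less abundant than the chaperones in both lines. ERN1 was at 7.99 ± 1.20 TPM in T24 and 8.94 ± 3.17 TPM in UMUC3, EIF2AK3 at 13.7 ± 0.975 and 15.3 ± 2.36 TPM, and ATF6 at 23.0 ± 2.29 and 18.2 ± 1.46 TPM. TPM depends on which transcript the authors' counts were given to, as for SSR1, whose T24 control was at 24.4 TPM against 68.3 and 83.9 TPM after knockdown. In T24, P4HB-208, a retained-intron transcript of 914 bases, held 31.2 (control), 33.3 and 26.6% of P4HB counts. The 776-base CALR-206 held 10.4 (control), 18.1 and 20.6% of CALR counts. Counts on short transcripts weigh more in TPM, so the order of P4HB and CALR in T24 rests on this assignment, which was not tested.

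**Figure D4:**
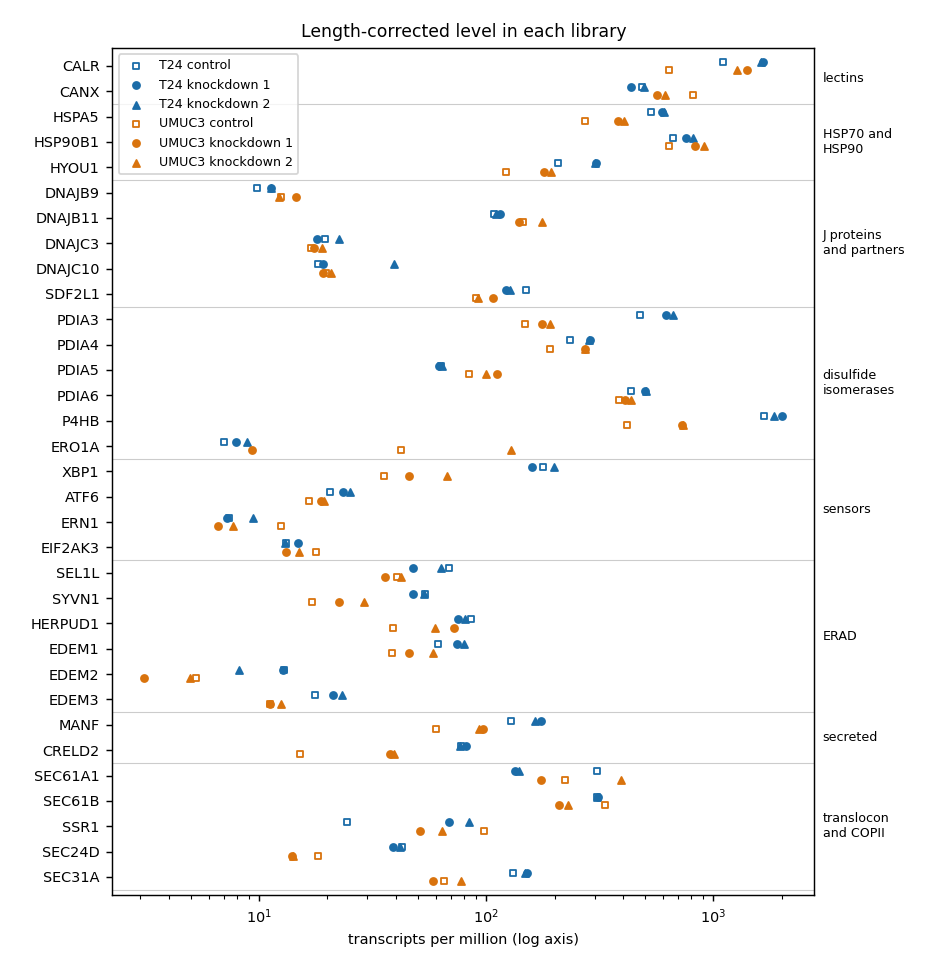
TPM in each library (x axis, log scale) for the 33 genes (y axis, by role), with T24 in blue, UMUC3 in orange, open squares for controls, circles for knockdown 1 and triangles for knockdown 2. HSP70, HSP90 and lectin chaperones and most isomerases occupy the right of the plot. The sensors ERN1, EIF2AK3 and ATF6 lie on the left, as do the J proteins DNAJB9 and DNAJC3. P4HB, PDIA3 and XBP1 show the T24 and UMUC3 points apart.

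For 13 members over 0.2 of the counts changed transcript between libraries of a line, and a transcript named here held at least 10% of the gene's counts in some library. The widest Wilson 95% interval of these shares was 13.2 percentage points for ERO1A, 7.24 for CRELD2, 7.19 for EDEM2 and 5.24 or less for the rest, covering counting error and not the assignment of reads. Transcript CANX-202 held 94.9% of CANX counts in the UMUC3 control, 3.03% in knockdown 1 and 93.9% in knockdown 2, and CANX-201 held 96.5% in knockdown 1. The gene sums of CANX in those knockdown libraries were nevertheless 1248 and 1268 CPM. EDEM2-201 and EDEM2-202 exchanged nearly all counts between libraries of both lines. P4HB-220, a transcript annotated for nonsense-mediated decay, held 44.5% of P4HB counts in UMUC3 knockdown 1 and at most 0.256% in every other library, while P4HB-201, P4HB-202, P4HB-203 and P4HB-208 held most of the rest. MANF-202 held 65.5% in the T24 control and 6.01 and 6.43% after knockdown, where MANF-204 went from 32.9% to 81.6 and 80.4% and MANF-201 from 0.264% to 11.5 and 12.4%. For MANF in T24 both knockdown libraries thus differed from the control in the same way. Counts also moved among the transcripts of CRELD2, DNAJB11, EIF2AK3, ERO1A, HERPUD1, SEC31A, SSR1 and SYVN1.

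XBP1 transcripts bear on the sensors because ERN1 removes a 26-base intron from its mRNA. In the annotation, XBP1-202 (ENST00000344347) has an intron of that length, while the shortest introns of XBP1-203, XBP1-204 and XBP1-206 are 314 bases. XBP1-202 held 49.2% (control), 31.6 and 28.9% of XBP1 counts in T24, and 32.9% (control), 35.3 and 19.5% in UMUC3. Both T24 knockdown libraries were lower, and the UMUC3 libraries lay on both sides. Most other counts fell on XBP1-204, at 2.09, 0.0521 and 65.8% in T24, or on XBP1-206, at 36.0, 53.2 and 1.81%, with XBP1-203 reaching 63.5% in UMUC3 knockdown 2. These shares are assignments of reads among overlapping transcripts and were not treated as a measurement of splicing.

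**Figure D5:**
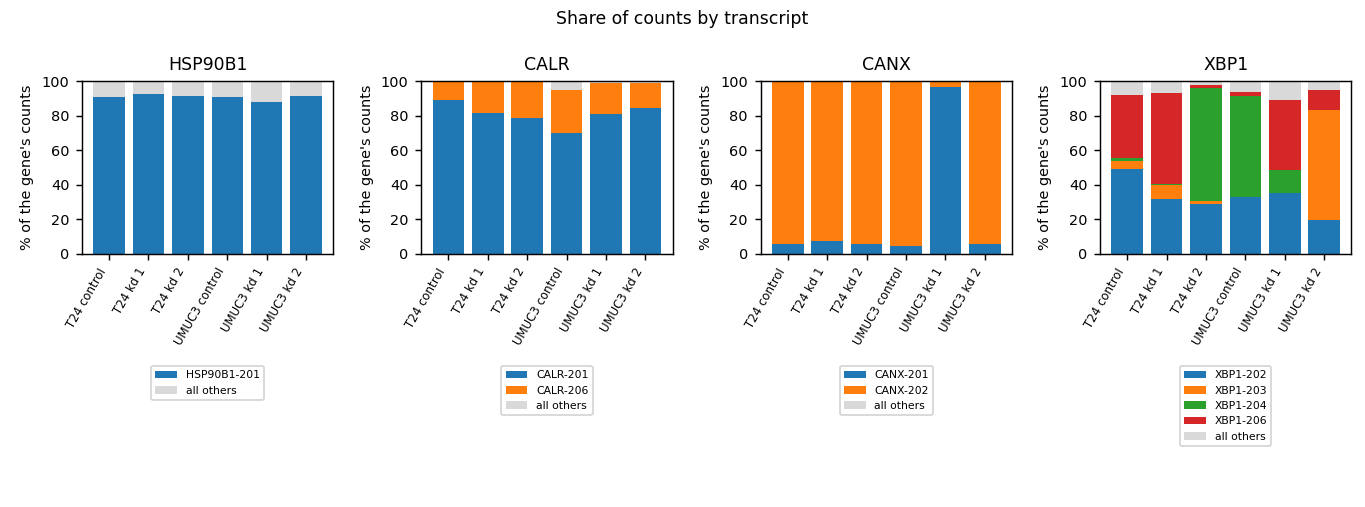
Share of each gene's counts by transcript (y axis, % of the gene's counts) in the 6 libraries (x axis) for HSP90B1, CALR, CANX and XBP1, with transcripts under 10% in every library pooled in grey. Within a line at most 0.145 of CALR counts and 0.0469 of HSP90B1 counts changed transcript, CANX exchanged transcripts in UMUC3 knockdown 1, and XBP1 shares differed from library to library.

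Other genes of the pathway were read from lists of folding and glycan enzymes, thiol oxidoreductases, further ERAD factors, unfolded protein response regulators and targets, translocon and signal peptidase genes, and COPII genes. Of 138 listed genes 130 were tested. None was called in T24, in UMUC3, in both lines together or in the difference, while 0.135%, 0.647%, 0.0145% and 0.0579% of all tested genes were. At an unadjusted p under 0.05, 16 were higher and 11 lower in T24 (6.6% and 5.94% of all tested genes), 19 and 9 in UMUC3 (9.22% and 7.62%), 12 and 7 in both lines together (5.95% and 5.63%), and 10 and 12 in the difference (6.27% and 7.19%). Their median log2 change was 0.11 in T24 and 0.05 in UMUC3. DESeq2 called 4 of them higher and 5 lower in both lines together (4.73% of all tested genes called), 6 and 2 in T24 (4.73%), 12 and 4 in UMUC3 (8.28%), and 0 and 4 in the difference (5.41%). Of the 66 that are composition-stable, edgeR called 1 higher in T24 (3.98% of such genes called), 5 higher and 3 lower in UMUC3 (12.5%), and 0 in both lines together (1.02%) and in the difference (3.29%).

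Between the lines 30 of the 130 were higher and 13 lower in T24, where 21.3% and 18.9% of all tested genes were. SERPINH1, the collagen chaperone HSP47, was at 407 (control), 539 and 519 CPM in T24 and had 0 counts in all 3 UMUC3 libraries. Against a floor of 3 counts per library its T24 mean of 488 ± 71.1 CPM (SD, n = 3) was at least 9091-fold higher in these counts. That bound covers counting error only, and whether the absence of UMUC3 counts came from the assignment of reads was not tested. The sulfhydryl oxidase QSOX1 (307 to 431 CPM in T24, 94.97 to 100.1 CPM in UMUC3) and the transmembrane thioredoxin TMX4 (log2 1.94 ± 0.12, edgeR adjusted p = 0.000227) were higher in T24, and TMX1 (125 to 139 and 246 to 262 CPM) was lower. Of the folding list FKBP11, a prolyl isomerase, was also higher and LMAN1, a cargo lectin, lower. Among ERAD factors SELENOS (log2 1.24 ± 0.14, edgeR adjusted p = 0.00153) and STUB1 were higher and FAF2 lower (-0.69 ± 0.12, 0.00623). CRELD1 and CREB3L2 of the regulators were higher, CREB3L2 at 425 (control), 254 and 68.6 CPM in T24, and TMBIM6 and PPP1R15A were lower. TRAM2 and the signal peptidase subunit SEC11A were higher, whereas SEC63 and SEC11C, the alternative subunit, were lower. KDELR2 and KDELR3, receptors that return ER proteins from the Golgi, were higher in T24 and SEC31B lower.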

How the data were processed

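Raw counts of reads for each of 136953 transcripts were deposited by the authors, without normalisation. The submitters' processing notes name the build hg38 and, without role or order, the tools FastQC (0.11.5), HISAT2 (2.1.0) and StringTie (1.3.3b). Strand and RNA selection are not given in the sources used here, so overlapping and antisense genes cannot be told apart. Transcripts with a gene (121915) were summed to 30717 genes. The 15038 without one took 14.9 to 16.1% of a library's counts and entered neither library sizes nor tests. Coordinates, transcript names and lengths are from GENCODE 29 on GRCh38, and promoters from RefSeq on GRCh38.p14.

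A gene was tested when 2 or more libraries had 10 or more counts and the total was 30 or more, which left 20721. The test was edgeR 4.0.16 in R 4.3.3 (TMM, robust quasi-likelihood F test, Benjamini-Hochberg adjustment over all tested genes at 0.05). The newer quasi-likelihood dispersions were used (legacy=FALSE), and this choice, which the written design did not name, was made after the default had also been run. Both lines together and T24 against UMUC3 come from a fit with line and knockdown as terms. Each line's knockdown effect and the difference come from a fit of 4 groups, where the lone control is assumed to vary like the other libraries. DESeq2 1.42.0 (Wald test, size factors), other scalings, no filter, composition-stable genes, a replicate block and each library left out in turn were alternatives. The scripts were tested on simulated data. TPM was computed from the counts.

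Members, lists and tests were chosen with earlier results of these data known. Every member is accounted for. Fold changes are given for up to 12 members past the threshold by smallest p with a mean of at least 5 CPM, or for the 6 with the smallest p where fewer than 6 passed, and for a few others named for their role. Of other pathway genes up to 2 per list and direction that passed are named. In T24 the number in a title and that in the data column are swapped, and the titles' numbers are used. Samples with the same number did not deviate together across lines (correlation 0.0153 over 20721 genes), and the numbers name reagents, so samples were not paired.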

Additional observations from a re-analysis of the deposited data

How the results depend on the processing

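Counts of called genes depended strongly on the setting. Directions did not reverse in the 36 gene results tried (461 values kept their side of the threshold, 19 passed it newly and 10 lost it). Those 36 were results of members taken by smallest p in the main fit, and the alternatives reuse mostly the same counts. A reversal was thus unlikely from the start, and members such as ERO1A and SEC61A1 were not among them. Over all genes, both lines together gave 3 calls, 981 with DESeq2, 8 with no filter and 47 among composition-stable genes. T24 gave 28 calls against 980 (DESeq2), 43 (no filter), 183 (composition-stable) and 2 with the default quasi-likelihood dispersions, an alternative added after seeing the data. UMUC3 gave 134 against 1715, 224, 574 and 13, and the difference 12 against 1120, 35, 151 and 5, and 5 with DESeq2 size factors in edgeR. T24 against UMUC3 gave 8329 calls, 2634 among composition-stable genes and 5049 between the controls alone. Leaving out 1 library gave 0 to 135 calls in both lines together, 0 to 25 in T24, 0 to 135 in UMUC3, 0 to 0 in the difference and 5913 to 7222 between the lines. The count in both lines together was 135 without the T24 control and 25 without the UMUC3 control, fits in which the knockdown effect comes from the other line alone, and 0 without any one knockdown library.

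Members called by DESeq2 were 5 in both lines together, 1 in T24, 9 in UMUC3 and 2 in the difference. Among composition-stable genes the calls were 1, 1, 6 and 1, and 7 between the lines (17 members tested). Between the lines 1362 of all 4593 such genes were called higher and 1272 lower, a larger share than among the 17 members. Leaving out 1 library gave 0 to 1 members in both lines together, 0 to 0 in T24, 0 to 1 in UMUC3, 0 to 0 in the difference and 16 to 18 between the lines. The 1 member of UMUC3, CALR, became 0 with the default dispersions (adjusted p = 0.0608), and in both lines together CALR passed without the T24 control (log2 1.26, edgeR adjusted p = 0.046).

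With a replicate block for the reagent number, taken from the titles or the columns, edgeR called 0 genes and 0 members in both lines together, in T24, in UMUC3 and in the difference, using library sizes of the tested genes because the fit otherwise failed numerically. At an unadjusted p under 0.05 the block from titles left 1901, 2174, 2975 and 2345 genes. CALR in UMUC3 stood at 1.25 with the block, with edgeR adjusted p values of 0.204 and 0.259.

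Each line has 1 control library, so the spread of controls was not measured, and the fits over all 6 libraries had 2 or 3 residual degrees of freedom before edgeR shared the spread across genes. The deposited counts of many members moved between transcripts, and the reason was not tested. Counts per member were 179 or more in every library, and counting intervals of transcript shares were widest for ERO1A, CRELD2 and EDEM2.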

Other observations

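ER stress elements also occur in promoters of genes outside the 33 members, and their carriers were read as a description with no test. ERSE was in the RefSeq windows of 18 further symbols, of which 8 were tested with a mean of at least 5 CPM. Their log2 change after knockdown was positive for 6 of 8 in T24 and 4 of 8 in UMUC3, and edgeR called 0 of 8 in either line (0.135% and 0.647% of all tested genes were called). SERP1, which stabilises membrane proteins in the ER, was at 153 (control), 172 and 186 CPM in T24 and at 252 (control), 244 and 241 CPM in UMUC3. FICD, which modifies HSPA5 by AMPylation, was at 4.05 (control), 8.54 and 6.01 CPM in UMUC3 and at 14.4 (control), 12.5 and 11.2 CPM in T24. ALG12, a mannosyltransferase of N-glycan assembly, lies on the opposite strand with a window that overlaps that of CRELD2 and holds the same site. Its level was 17.0 (control), 20.1 and 14.4 CPM in UMUC3, where CRELD2 was at 11.9 (control), 28.4 and 30.5 CPM. In T24 ALG12 was at 27.7 (control), 42.2 and 31.1 CPM. SYNPO, an actin-associated protein, was at 113 (control), 37.4 and 30.04 CPM in UMUC3 (log2 -1.75 ± 0.19, edgeR adjusted p = 0.0569). It lay above its control in T24, at 10.1 (control), 13.6 and 13.9 CPM (log2 0.45 ± 0.21).

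ERSE-II was in 16 further symbols, 10 of them tested at 5 CPM or more, and 5 of 10 were positive in T24 and 4 of 10 in UMUC3, with 0 called. GYS1, the glycogen synthase of muscle and other tissues, was at 66.0 (control), 146 and 138 CPM in UMUC3 (log2 1.11 ± 0.11, edgeR adjusted p = 0.0541). In T24 it was at 103 (control), 136 and 141 CPM. NUCB1, a calcium-binding protein of the Golgi, was at 147 (control), 204 and 175 CPM in UMUC3 and at 196 (control), 230 and 214 CPM in T24. GYS1, SYNPO, NUCB1, SERP1, FICD and ALG12 were singled out after their values were seen.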
